A study of Rattus norvegicus with 6 samples.

Results

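The cell cycle and DNA replication genes described here are 45 named genes, 17 that act at the G1/S transition and in DNA replication and 28 that act in G2 and mitosis. They were taken by gene name from a list, and 43 of the 45 had a row in the table: 16 of the G1/S genes and 27 of the G2/M genes, out of 22050 annotated genes. No row carries the names Ccnb2 and E2f1, which are not analysed here. The data are RNA-seq of rat subchondral bone, the bone under the joint cartilage of the tibia, in 6 libraries, S10, S12 and S13 followed by S20, S21 and S23. The study set out to compare rats at low and at normal temperature in search of molecules tied to cold and arthritis. The labels give no temperature, treatment, strain, age or sex for any library, so groups could not be formed, none were compared, and no p-value is given. The sources used here do not say whether the libraries came from separate animals or from pools. Each value below is a level in 1 library or a range over the 6, and where 6 values follow each other they stand in the library order above.

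Cells divide by switching on genes in waves. Late in G1, E2F factors are released from the retinoblastoma family of proteins and turn on genes that license and fire replication origins and supply nucleotides. Later, the complexes that hold MYBL2 and FOXM1 turn on the genes for chromosome condensation, spindle assembly and cytokinesis, many through a promoter element called CHR together with CCAAT boxes. Bone that is ground up with its marrow holds erythroblasts, granulocyte precursors and B cell precursors, which are known to divide often, while mature osteoblasts, osteocytes and neutrophils are known to divide rarely or not at all. In bulk RNA, fewer dividing cells and less of these RNAs per dividing cell cannot be told apart.

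The promoters of both sets were read from the RefSeq table of the rat assembly GRCr8, from 250 bases before to 50 bases after each start, to show which elements the members share besides their names. Of the 43 genes, 34 were matched by symbol: 12 G1/S and 22 G2/M genes. The motifs, searched on both strands, were the E2F type (TTTCCCGC, TTTGGCGC, TTTCGCGC or TTTGCCGC), the CHR type (TTTGAA or TTCGAA) and CCAAT. An E2F-type match was present in 7 of the 12 G1/S promoters (58.3%) and in 1 of the 22 G2/M promoters (4.55%), that of Cdk1, against 2.14% of all 33469 promoters. CHR-type matches lay in 16 of the 22 G2/M promoters (72.7%), 3 of the 12 G1/S promoters (25%) and 19.7% of all promoters. CCAAT was found in 17 G2/M promoters (77.3%), 8 G1/S promoters (66.7%) and 37.5% of all promoters. Both CCAAT and a CHR-type match lay in 13 of the 22 G2/M promoters and in 2 of the 12 G1/S promoters. Matches may overlap: 13 bases in the G1/S promoters and 2 in the G2/M promoters belonged to more than 1 match. With TTTGGCGC as the only E2F form the counts were 4 and 0, and with TTTGAA as the only CHR form 1 G1/S and 16 G2/M promoters held a match. These are matches of letters, not bound sites.

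The promoters below are those of the 2 most abundant members of each phase whose promoter in the table holds a match. Mcm5 and Mki67, which with 6 matches each tie with Mcm7, Cdk1 and Top2a for the most, were added after their values were seen. No entry was matched for Ccne2, Mcm4, Rrm2, Cdc6, Ccna2, Aurkb, Ube2c, Tpx2 and Foxm1. Each promoter is written 5′ to 3′ on the strand of its gene, with the matches in capitals. Pcna lies at chr3:139955771-139956070 on the minus strand, Mcm7 at chr12:22163129-22163428 on the minus strand, Mcm5 at chr19:13488563-13488862 on the plus strand, Cdk1 at chr20:19265043-19265342 on the plus strand, Birc5 at chr10:103571896-103572195 on the plus strand and Mki67 at chr1:199952544-199952843 on the minus strand, all in GRCr8, which is not stated to be the build of the deposited values.
Pcna: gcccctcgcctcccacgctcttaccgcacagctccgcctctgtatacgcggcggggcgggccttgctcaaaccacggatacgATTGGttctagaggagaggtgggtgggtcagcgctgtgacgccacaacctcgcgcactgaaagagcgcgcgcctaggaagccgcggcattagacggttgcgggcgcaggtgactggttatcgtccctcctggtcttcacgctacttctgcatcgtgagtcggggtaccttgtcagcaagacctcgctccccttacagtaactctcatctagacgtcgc
Mcm7: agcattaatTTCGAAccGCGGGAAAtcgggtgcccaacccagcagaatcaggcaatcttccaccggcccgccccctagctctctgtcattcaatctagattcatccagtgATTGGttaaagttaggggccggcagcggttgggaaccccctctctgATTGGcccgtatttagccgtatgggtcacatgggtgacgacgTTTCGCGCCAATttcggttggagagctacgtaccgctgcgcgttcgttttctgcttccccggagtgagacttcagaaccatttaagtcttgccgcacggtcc
Mcm5: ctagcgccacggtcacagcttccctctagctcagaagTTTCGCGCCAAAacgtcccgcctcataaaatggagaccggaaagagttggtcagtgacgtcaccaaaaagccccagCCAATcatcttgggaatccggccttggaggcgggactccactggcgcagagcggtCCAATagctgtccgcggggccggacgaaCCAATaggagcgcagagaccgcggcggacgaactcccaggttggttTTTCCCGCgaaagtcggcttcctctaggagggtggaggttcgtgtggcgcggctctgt
Cdk1: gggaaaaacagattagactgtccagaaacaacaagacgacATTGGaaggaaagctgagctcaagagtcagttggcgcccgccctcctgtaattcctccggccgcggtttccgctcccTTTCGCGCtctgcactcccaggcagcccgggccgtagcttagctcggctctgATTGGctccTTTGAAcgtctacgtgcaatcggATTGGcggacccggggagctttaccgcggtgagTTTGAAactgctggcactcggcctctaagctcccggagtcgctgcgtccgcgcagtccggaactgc
Birc5: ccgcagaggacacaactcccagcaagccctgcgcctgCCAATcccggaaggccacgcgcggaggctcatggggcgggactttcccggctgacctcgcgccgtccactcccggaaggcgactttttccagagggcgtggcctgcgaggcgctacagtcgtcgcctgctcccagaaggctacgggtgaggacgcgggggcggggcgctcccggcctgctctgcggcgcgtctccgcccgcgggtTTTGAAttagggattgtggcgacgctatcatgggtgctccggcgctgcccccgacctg
Mki67: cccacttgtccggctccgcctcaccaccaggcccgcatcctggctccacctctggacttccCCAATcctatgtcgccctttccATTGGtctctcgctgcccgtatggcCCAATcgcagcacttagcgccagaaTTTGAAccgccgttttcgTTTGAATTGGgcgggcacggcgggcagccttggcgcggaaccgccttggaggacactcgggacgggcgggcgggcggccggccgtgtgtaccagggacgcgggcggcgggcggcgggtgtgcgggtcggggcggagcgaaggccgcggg
Positions count from the start as +1. In Mcm5 an E2F-type match begins at -8, and another pair on opposite strands overlaps at -213 and -209. Cdk1 holds 1 E2F-type match, 2 CHR-type matches at -72 and -16, and 3 CCAAT matches. In Birc5 a CHR-type match begins at -8, and in Mki67 a CHR-type and a CCAAT match share a base. Pcna has a CCAAT match and none of the other forms in this window.

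All 43 genes were detected in every library, the lowest count being 216 (Anln in S10). In FPKM (fragment counts divided by transcript length and library size, so that genes of different length can be compared), the median gene of the G1/S set had 38.5 FPKM and that of the G2/M set 33.0 FPKM, against 9.12 FPKM for the 11619 expressed genes, that is, annotated genes whose median reached 1 FPKM and whose length was known. The sum of counts over the 16 G1/S genes was 0.161% of all counts in S10 (95% exact Clopper-Pearson interval 0.160 to 0.163%) and 0.277% in S20 (0.275 to 0.278%). Over the 27 G2/M genes it was 0.201% in S10 (0.200 to 0.203%) and 0.472% in S20 (0.470 to 0.475%). The other 4 libraries lay between these for both phases, from 0.187 to 0.235% for G1/S and from 0.2725 to 0.359% for G2/M. These intervals cover counting error only. With globin counts left out of the total, the G1/S share was lowest in S23 (0.209%) rather than in S10 (0.223%). The G2/M share was still lowest in S10 (0.278%, against 0.304% in S23), and S20 stayed highest for both phases (0.343 and 0.585%).

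The replication clamp Pcna was the most abundant member. Pcna (ENSRNOG00000021264) had 253, 241, 246, 267, 285 and 239 FPKM in library order. Its lowest library stood above the highest library of every other member, and its range was 0.26 on the log2(FPKM + 1) scale. Among the enzymes that make DNA precursors, the large subunit of ribonucleotide reductase, Rrm1, had 60.4, 94.9, 77.8, 108, 84.1 and 68.7 FPKM in library order. The small subunit, Rrm2 (ENSRNOG00000054286), which is known to be made and destroyed with each S phase, had 33.2, 77.7, 71.7, 114, 74.8 and 76.0 FPKM in library order. Rrm2 was thus close to even in 4 libraries, low in S10 and high in S20, and its 3.43-fold range was the widest of the G1/S genes. Tyms, which makes thymidylate, ranged from 24.7 FPKM in S13 to 42.8 in S12 with a median of 29.6 FPKM.

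The 6 subunits of the MCM helicase, which work as a ring of 1 copy each, did not have equal levels: their medians ran from 35.9 FPKM (Mcm4) to 86.2 FPKM (Mcm7), a 2.40-fold spread. Mcm7 had 66.5, 93.8, 78.6, 98.9, 94.2 and 66.5 FPKM in library order. Mcm6 had 35.5, 57.7, 45.4, 72.1, 62.6 and 42.3 FPKM. Mcm5 had 30.2, 52.8, 40.2, 59.7, 51.3 and 44.2 FPKM. In the deposited values all 6 were lowest in S10 and highest in S20, with Mcm7 nearly as low in S23 as in S10. Of all expressed genes, 60.1% were lowest in S10 and 28.8% highest in S20. After length correction, described below, only Mcm2 was both lowest in S10 and highest in S20, and Mcm5 and Mcm7 were highest in S21. Mcm2 had 25.9, 56.2, 39.4, 64.3, 50.4 and 38.9 FPKM, and Mcm4 had 21.8, 42.0, 32.01, 57.9, 39.7 and 30.9 FPKM. Mcm3 lay between 25.9 and 55.4 FPKM. In the deposited values Mcm2 and Mcm4 varied 2.49-fold and 2.66-fold, more than the 1.49-fold of Mcm7. After length correction the ranges of Mcm2 and Mcm7 were alike, at 0.56 and 0.57 log2 units, and that of Mcm4 was 0.68.

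Genes that load or start the helicase had lower medians over libraries than its subunits, though not lower values in each library. Cdt1, a loader that is degraded once replication begins, ranged from 24.1 FPKM in S23 to 41.5 in S21, above Mcm2, Mcm3 and Mcm4 in S10 (27.6 FPKM) and above Mcm4 in S21. Cdc6, which loads the ring together with it, had 11.8, 21.4, 16.4, 29.2, 18.5 and 14.6 FPKM in library order. Gins2 (10.5 to 16.9 FPKM) and Cdc45 (6.35 to 8.29 FPKM), partners of the active helicase, were the lowest of the G1/S genes. The E cyclins, which activate CDK2 at the end of G1, had medians of 33.6 FPKM (Ccne1, lowest in S23 at 29.1 and highest in S20 at 50.6) and 22.3 FPKM (Ccne2, 16.6 in S23 and 27.9 in S20). Both E cyclins were lowest in S23 rather than in S10.

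By median FPKM, Ube2c, Birc5 and Cdk1 led the G2/M genes, at 124, 90.8 and 90.7 FPKM. Ube2c (ENSRNOG00000015131), the ubiquitin-conjugating enzyme of the anaphase-promoting complex, had 120.2, 133, 127, 128, 117 and 112 FPKM in library order. Cdk1, the kinase that drives entry into mitosis, had 85.9, 90.3, 91.1, 96.3, 92.4 and 82.2 FPKM. Both were nearly level over the libraries in the deposited values, with highest values 1.18 and 1.17 times the lowest. Its cyclins varied more: Ccna2 had 55.8, 79.3, 69.5, 104, 74.0 and 67.0 FPKM in library order. Ccnb1 had 33.1, 62.0, 49.4, 73.9, 61.5 and 55.1 FPKM, a 2.23-fold range. This contrast in size depended on the scaling, described below. After TMM scaling it was lost: Cdk1 ran from 76.0 FPKM in S23 to 112.5 in S10. Ccna2 then ran from 61.9 in S23 to 93.2 in S20 and Ccnb1 from 43.4 in S10 to 66.0 in S20. After length correction the contrast remained, with ranges of 0.39 log2 units for Cdk1, 0.73 for Ccna2 and 1.06 for Ccnb1. Cdc20, which activates the anaphase-promoting complex, ranged from 30.4 FPKM in S10 to 59.5 in S20. The transcription factor gene Foxm1 was low, from 4.57 FPKM in S10 to 12.8 in S20.

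The chromosomal passenger complex, which corrects faulty spindle attachments, has 3 members in the list. Birc5 (survivin) had 107, 83.9, 89.2, 92.4, 99.3 and 73.9 FPKM in library order. In the deposited values it was the only one of the 43 genes to be highest in S10. Cdca8 (borealin, 38.2 to 50.7 FPKM) and Aurkb (the kinase of the complex, 30.8 to 47.5 FPKM) had similar medians of 45.2 and 42.9 FPKM. The other mitotic kinases Plk1 and Aurka had medians of 37.4 and 29.7 FPKM, and Tpx2, which activates Aurora A on spindle microtubules, ranged from 24.8 FPKM in S10 to 71.0 in S20. Spindle checkpoint genes spread widely in level, from Mad2l1 (30.3 to 35.0 FPKM) over Bub1 (10.8 to 26.0 FPKM) and Bub1b (8.22 to 21.4 FPKM) to Ttk (6.74 to 11.7 FPKM). In the deposited values Mad2l1 had the smallest range of the 43 genes, 0.20 on the log2(FPKM + 1) scale. This did not hold under other scalings: after TMM scaling it ran from 26.2 to 39.9 FPKM, and after length correction its range of 0.27 was larger than those of Aurkb (0.14) and Ttk (0.15).

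Chromosome, spindle and cytokinesis genes held the widest ranges in the deposited values. Top2a, the topoisomerase that untangles sister chromatids, had 35.9, 72.6, 51.4, 83.7, 49.97 and 49.5 FPKM in library order. Mki67 (ENSRNOG00000028137), whose protein coats mitotic chromosomes and is the usual stain for dividing cells, had 23.3, 65.02, 36.8, 110.5, 45.1 and 36.6 FPKM in library order. S20 was 4.75 times S10. The kinetochore genes Cenpf (5.47, 15.0, 8.81, 24.3, 8.63 and 7.40 FPKM) and Cenpe (4.19, 11.5, 6.71, 16.9, 7.502 and 7.54 FPKM) followed the same order at both ends, whereas Cenpa, the centromeric histone, stayed between 17.9 FPKM in S12 and 24.6 in S20. Anln, the scaffold of the cleavage furrow, had 1.47, 8.54, 4.66, 11.2, 4.69 and 5.81 FPKM in library order. Its range was the widest of all members in the deposited values. After length correction it was 1.59 log2 units, against 1.86 for the G1/S gene Rrm2. The spindle midzone genes Prc1, Kif23 and Kif20a had medians of 38.2, 21.2 and 21.3 FPKM, the spindle motor Kif11 21.2 FPKM and the microtubule bundler Nusap1 27.9 FPKM. In the deposited values all 5 were lowest in S10 and highest in S20, as were 60.1% and 28.8% of all expressed genes, each taken alone. After length correction Kif20a and Kif23 kept this order and Prc1 and Kif11 were lowest in S23. Nusap1 was then highest in S10 and lowest in S23.

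**Figure D1:**
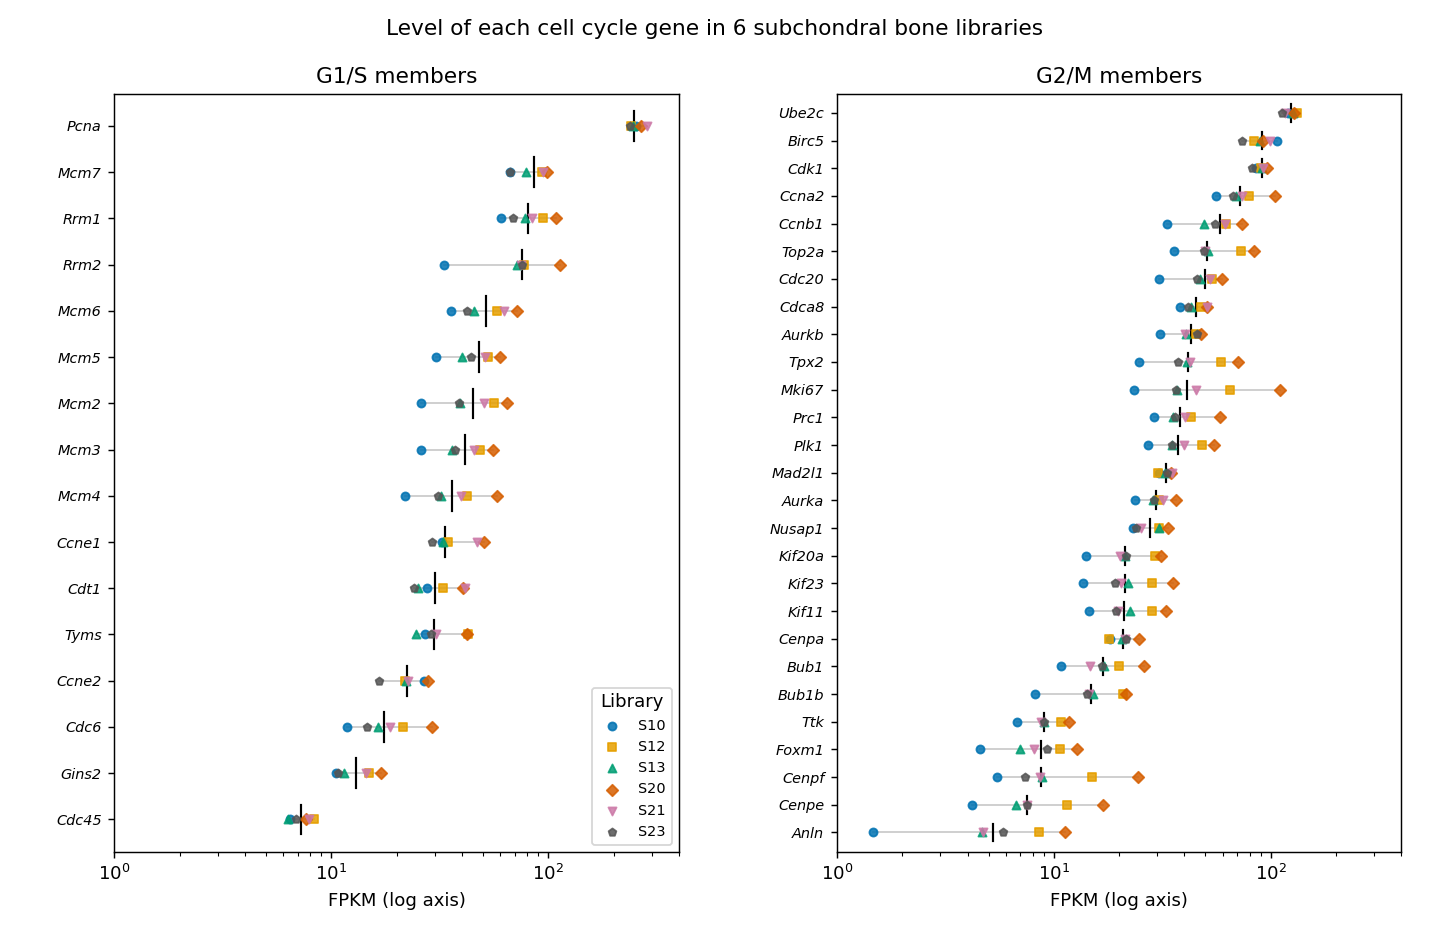
FPKM (log axis) of the 16 G1/S and 27 G2/M genes, 1 point per library, a black tick at the median and a grey line over the range of the 6 libraries. Pcna stands apart at 239 to 285 FPKM, and the S20 points lie at the right end and the S10 points at the left end of most genes, least so for Ube2c, Cdk1, Mad2l1 and Birc5.

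In the deposited values S20 was the highest library for 12 of 16 G1/S genes and 24 of 27 G2/M genes, against 28.8% of all expressed genes. S10 was the lowest for 10 of 16 and 22 of 27, against 60.1% of all expressed genes, so the G1/S share (62.5%) was close to the background. S20 exceeded S10 in 16 of 16 and 26 of 27, against 72.1% of all expressed genes. A range of at least 1 log2 unit was reached by 6 G1/S and 13 G2/M genes (37.5% and 48.1%), against 36.6% of all expressed genes. The score of a phase, in which log2(FPKM + 1) is set against the gene's own median over libraries and averaged over genes, ran from -0.39 in S10 to 0.42 in S20 for G1/S and from -0.48 in S10 to 0.51 in S20 for G2/M. The median of all expressed genes moved in part the same way, from -0.31 in S10 to 0.14 in S12.

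These values depend on the scaling between libraries. S10 had the highest share of globin counts (27.6%, against 10.4 to 20.8% in the others) and the lowest TMM factor (0.76). TMM factors correct for a few very abundant genes. On TMM-scaled FPKM S20 remained the highest library of both scores, at 0.25 for G1/S and 0.35 for G2/M, while the lowest was S23, at -0.31 and -0.18, and S10 stood at -0.02 and -0.115. S20 was then the highest library for 9 of 16 and 18 of 27 genes (23.8% of all expressed genes), and S10 the lowest for 4 of 16 and 10 of 27 (32.9% of all). Ranges of at least 1 log2 unit fell to 2 and 5 genes, or 12.5% and 18.5%, against 29.4% of all expressed genes. Those 7 genes were Rrm2, Ccne2, Anln, Mki67, Cenpf, Cenpe and Birc5. Mki67 had 30.5 FPKM in S10 and 98.7 in S20 after TMM scaling, and Rrm2 43.5 and 102 FPKM. S10 was then the highest library for 3 G1/S genes (Pcna, Ccne2 and Cdc45) and 5 G2/M genes (Ube2c, Birc5, Cdk1, Mad2l1 and Cenpa), against 33.1% of all expressed genes. Pcna had 331 FPKM there, Ube2c 157 and Birc5 141.

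The difference between S20 and S10 rose with transcript length. Length was taken as that implied by the ratio of counts to FPKM, which ran from 869 bases for Ube2c to 11001 bases for Cenpf. The difference in log2(FPKM + 1), S20 minus S10, had a median of 0.295 in the 10 members under 2000 bases, 0.97 in the 24 members from 2000 to 4000 bases and 1.199 in the 9 longer members. All expressed genes had medians of -0.07, 0.53 and 0.96 in the same 3 classes, which were chosen after the values were seen. Across genes, Spearman's rho between length and this difference was 0.79 over the 27 G2/M genes, 0.14 over the 16 G1/S genes and 0.585 over all 11619 expressed genes. It is given as a description, since genes of the same libraries are not independent replicates. The members that were nearly level in the deposited values, Ube2c, Pcna, Cdk1 and Mad2l1, are all under 2000 bases, and the widely varying Mki67, Cenpf and Cenpe are the longest. Rrm2 (1281 bases, difference 1.75), Ccnb1 (1755 bases, 1.13), Anln (3687 bases, 2.31) and Mki67 (10792 bases, 2.20) stood well above genes of their length. Tpx2, Cenpf and Cenpe also stood above them, with differences of 0.92, 0.81 and 0.63 left after the length correction below. Kif23, Cdc20, Ccna2, Cdc6 and Mcm4 lay between Cenpf and Cenpe, at 0.75 to 0.65. A difference above 0 was left in 37 of the 43 members, against 50% of all expressed genes. Ccne2 (3307 bases, 0.06) and Cdc45 (6983 bases, 0.22) stood below genes of their length.

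**Figure D2:**
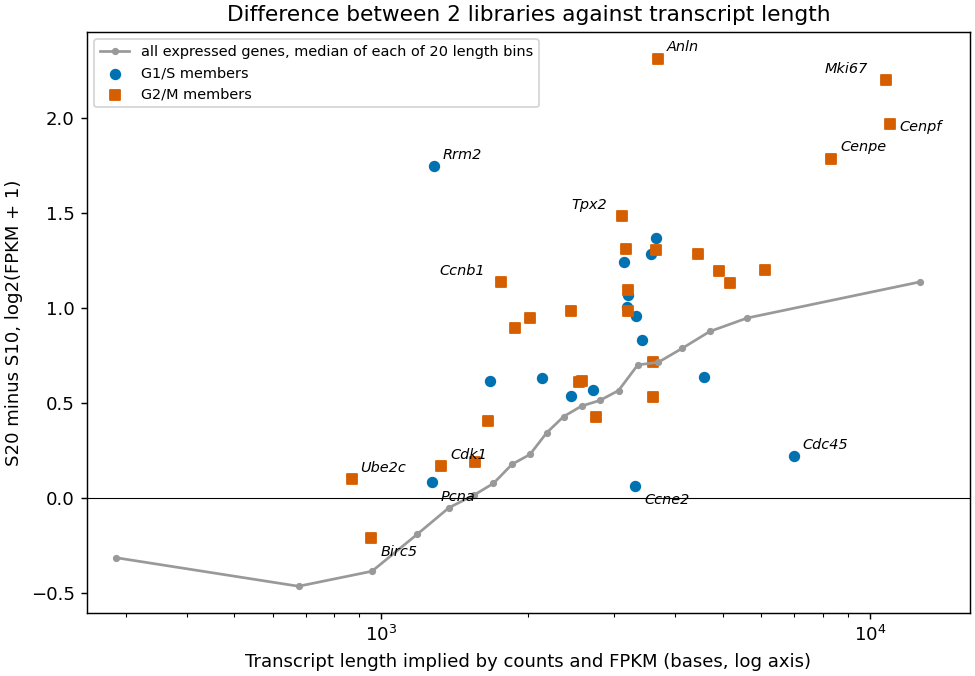
Difference in log2(FPKM + 1) between S20 and S10 (vertical axis) against the transcript length implied by counts and FPKM (log axis) for each member. The grey line joins the medians of 20 length bins of all expressed genes, from -0.32 in the shortest bin to 1.14 in the longest, and most members lie above it, with Ccne2 and Cdc45 well below.

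With each library's median in 20 length bins removed, S20 stayed highest and S10 was no longer the usual low end. S20 was the highest library for 10 of 16 G1/S and 24 of 27 G2/M genes, against 23.9% of all expressed genes, and S10 the lowest for 2 and 10, against 29.7%. S23 was the lowest for 11 of 16 and 13 of 27, against 19.1% of all expressed genes. S20 was above S10 in 13 of 16 and 24 of 27, against 50% of all expressed genes, and the median of this difference over the 43 genes fell from 0.96 to 0.33. Ranges of at least 1 log2 unit were left in 2 G1/S genes (Rrm2 at 1.86 and Ccne2 at 1.18) and 4 G2/M genes (Anln at 1.59, Cenpf at 1.16, Mki67 at 1.13 and Ccnb1 at 1.06), or 12.5% and 14.8%, against 19.8% of all expressed genes. After correction the G1/S score was 0.27 in S20, 0.19 in S21, -0.01 in S10 and S12, -0.09 in S13 and -0.24 in S23. The G2/M score was 0.35 in S20, 0.07 in S12, 0.04 in S21, 0.00 in S13 and -0.12 in S10 and S23. S10 was the highest library for Ccne2, Gins2, Cdc45, Nusap1, Cenpa and Ttk, and S21 for Mcm5, Mcm7 and Cdt1.

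**Figure D3:**
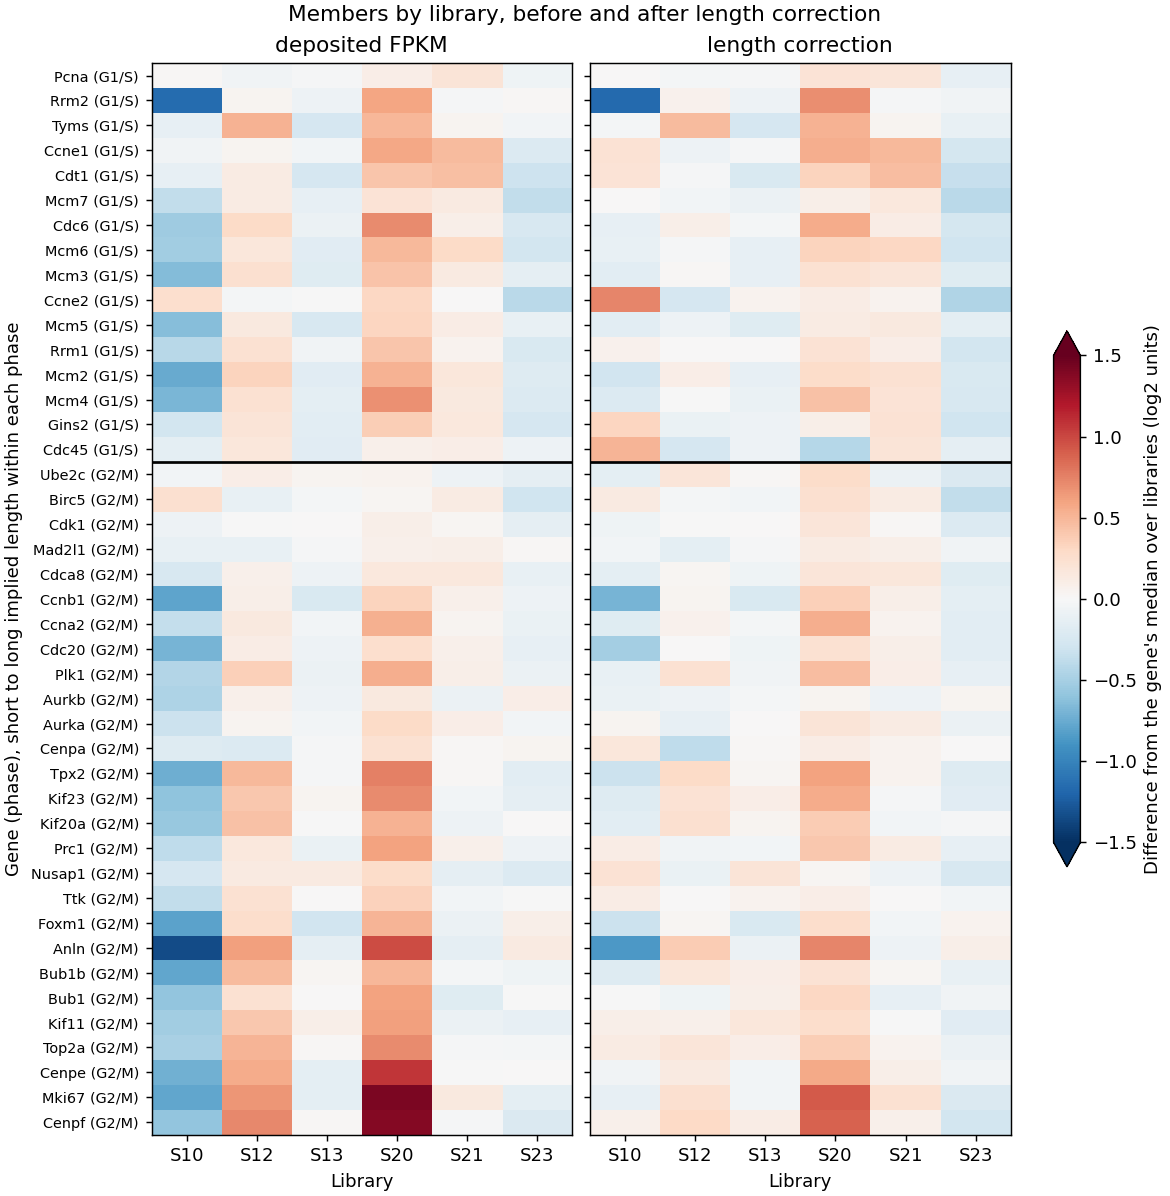
Difference of each of the 43 members from its own median over the 6 libraries, in log2 units, on the deposited values (left) and after length correction (right), with genes ordered from short to long within each phase. The blue S10 column of the left panel is mostly lost on the right, except in Rrm2, Ccnb1, Cdc20 and Anln, while S20 stays red in most rows.

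The phases were not separated by much. The G2/M score minus the G1/S score lay between -0.16 in S21 and 0.12 in S23, a range of 0.28, and changed little with the scaling (0.27 to 0.28 under TMM, median-ratio, common-sum and length correction). S21 was the library where the replication genes stood highest relative to the mitotic genes, with a G1/S score of 0.19 and a G2/M score of 0.04 after TMM scaling, and S10 was the other library with a negative difference (-0.10). In S12, S13, S20 and S23 the difference was 0.08 to 0.12.

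**Figure D4:**
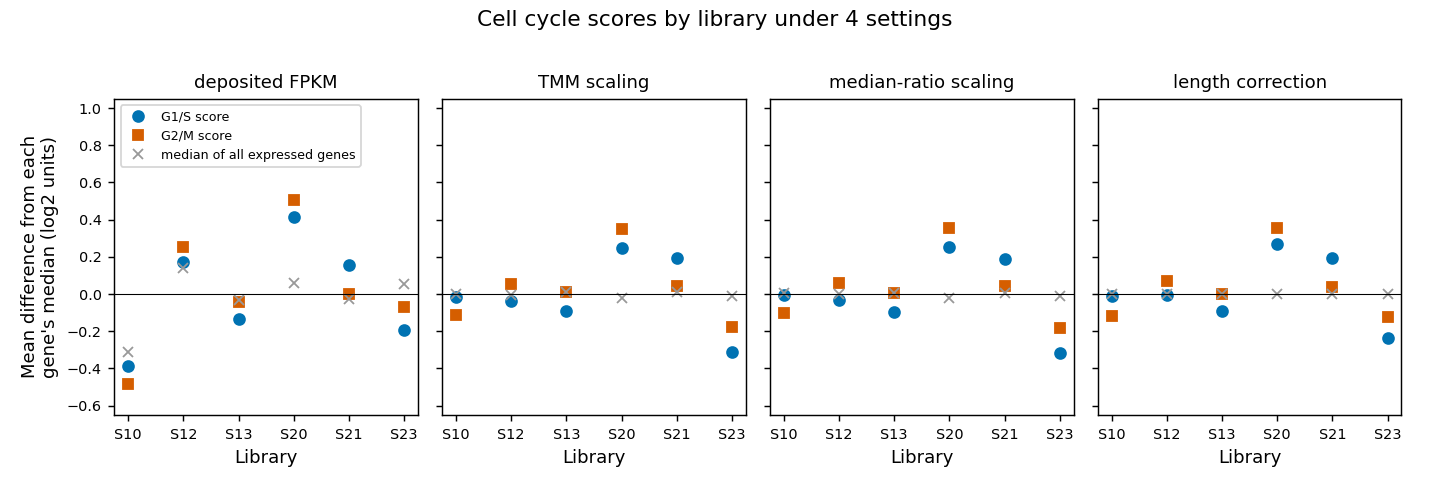
Score of the G1/S genes (circles) and G2/M genes (squares) and the median of all expressed genes (crosses) in each library, in log2 units, in 4 panels (deposited FPKM, then TMM, then median-ratio, then length-corrected values). S20 is the highest library in all 4 panels, and the low value of S10 in the first panel (-0.39 and -0.48) shrinks to between -0.12 and -0.01 in the others.

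Other genes of the same machinery were read from lists. Their counts of genes highest in S20 stand against the same 28.8% of all expressed genes in the deposited values and 23.9% after length correction. All 26 other replication genes reached a median of 1 FPKM, led by Dut (286 FPKM), which keeps uracil out of DNA, the histone mRNA binding protein gene Slbp (155 FPKM) and thymidine kinase Tk1 (106 FPKM). S20 was the highest library for 15 of them in the deposited values. The 28 other mitotic genes with a row were led by Cks2 (123 FPKM), a CDK1 partner, the securin gene Pttg1 (109 FPKM) and Bub3 (56.0 FPKM), and S20 was the highest for 24. After length correction these counts were 15 of 26 and 19 of 28, and both scores were highest in S20 (0.21 and 0.31) and lowest in S23 (-0.17 and -0.13).

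Among the genes that set the pace of G1, Ccnd3 (252 FPKM) was the most abundant D cyclin, against 10.9 FPKM for Ccnd2 and 3.48 FPKM for Ccnd1, the last 2 being chosen after their values were seen. Its kinase partner Cdk4 had 106 FPKM and Cdk2 21.7 FPKM. Of 9 CDK inhibitors and pocket proteins with a row, 7 reached a median of 1 FPKM, led by Cdkn1b (p27, 74.8 FPKM), Cdkn2c (p18, 33.6 FPKM) and Rbl2 (p130, 12.5 FPKM). Cdkn1b and Cdkn2c had their highest values in S20, at 103 and 44.99 FPKM, as had 4 of the 7, and 4 of 7 after length correction. Of the 16 E2F, DREAM and MYB factors, with Tfdp1 (84.9 FPKM), E2f2 (84.0 FPKM) and E2f4 (79.2 FPKM) at the head, S20 was the highest library for 13, and for 12 after length correction. The ubiquitin ligase list was led by Ube2s (238 FPKM), Skp1 (133 FPKM) and Anapc5 (85.7 FPKM), with S20 highest for 7 of 13, and for 6 after length correction. In the list of checkpoint and phosphatase genes, Cdc25b (176 FPKM) stood far above Cdc25a (15.0 FPKM) and Chek2 (14.3 FPKM), and S20 was highest for 6 of 7 in the deposited values but for 3 of 7 after length correction.

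Lineage markers moved between the same libraries. Erythroid markers, led by Ahsp (1215 FPKM), Alas2 (765 FPKM) and Slc4a1 (254 FPKM), had a length-corrected score of 0.55 in S20 and -0.72 in S23. S20 was the highest library for 7 of 9, before and after length correction, against 28.8% and 23.9% of all expressed genes. Ahsp itself was highest in S10 (1748 FPKM) and lowest in S23 (784 FPKM). B cell precursor markers (Cd79b at 51.6, Igll1 at 31.5 and Vpreb1 at 17.4 FPKM) were also highest in S20 (0.61) but lowest in S21 (-0.89), where the G1/S score was above 0. The scores of early and late neutrophil markers ran the other way, lowest in S20 (-0.23 and -0.54) and highest in S23 (0.62 and 0.79). Both were also below 0 in S10 (-0.15 and -0.22) and S12 (-0.13 and -0.38). The early list was led by Ctsg (916 FPKM), Elane (603 FPKM) and Mpo (572 FPKM). The late list was led by S100a9 (19361 FPKM), S100a8 (13503 FPKM) and Camp (2731 FPKM). Not every gene was lowest in S20: Mpo had 370 FPKM in S10 and 537 in S20. In the deposited values S10 was the lowest library for 2 of 7 early and 3 of 9 late markers, against 60.1% of all expressed genes. The part of these lineages in the member scores was not tested. Among late neutrophil markers Ltf was listed at 0 in S12 and had at most 5 counts elsewhere.

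Markers of the labelled tissue were present in all libraries. Osteoblast markers were led by Bglap (439 FPKM), Col1a1 (202 FPKM) and Ibsp (173 FPKM), osteoclast markers by Ctsk (407 FPKM), Acp5 (262 FPKM) and Atp6v0d2 (12.2 FPKM), and chondrocyte markers by Col2a1 (112 FPKM), Comp (32.03 FPKM) and Col9a1 (10.5 FPKM). Their length-corrected scores in S20 were 0.18, -0.01 and -0.18. The osteoblast score was highest in S20 and lowest in S23 (-0.18), but this did not hold for most of its genes. S20 was the highest library for 2 of the 6 osteoblast markers, before and after length correction, against 28.8% and 23.9% of all expressed genes. In the deposited values Bglap was highest in S10, and Col1a1 and Ibsp were highest in S12. Macrophage markers (C1qa, C1qc and C1qb, with medians of 169, 119.8 and 98.3 FPKM) and T and NK cell markers (Nkg7, Cd3g and Cd2, with 240.4, 9.29 and 3.35 FPKM) stood at -0.16 and -0.28 in S20. Markers of skeletal muscle (Mylpf, Tnnt3 and Ckm) and of fat cells (Fabp4, Adipoq and Lpl) peaked in S12, the second-highest library of the G2/M score, at 1.90 and 1.97. Lep was at 0 in S21 and S23. Whether these RNAs came from inside or outside the bone was not tested. Mitochondrially encoded genes (Mt-co1, Mt-co2 and Mt-co3) had 0.91 in S20 and -0.62 in S10, ribosomal protein genes (Rplp0, Rps2 and Rps18) -0.54 and 0.29, and globin genes (Hba-a1, Hba-a2 and Hbb) 0.08 and 0.56. Their part in the member scores was not tested either.

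**Figure D5:**
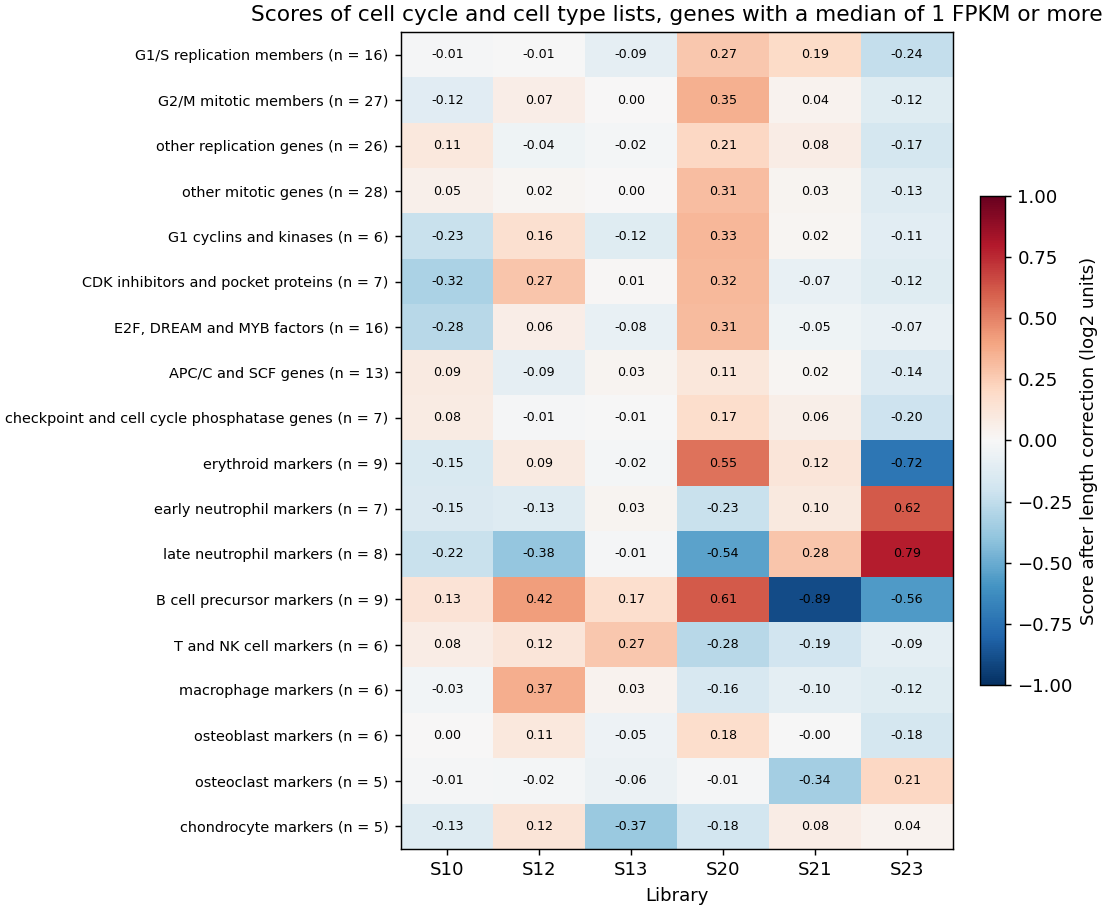
Length-corrected score of each list shown in each library, in log2 units, over the n genes of the list that reached a median of 1 FPKM. The member lists have their highest score in S20 and their lowest in S23 (level with S10 for the G2/M members), as do the erythroid and osteoblast markers and the other replication, other mitotic, APC/C and checkpoint lists, and the neutrophil markers show the opposite order at both ends.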

How the data were processed

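RNA-seq of 6 rat subchondral bone libraries was read from a table with a count and an FPKM column per library. The authors deposited raw, whole-number counts without normalization. The FPKM columns, so named per the file headers, come from the authors and differ in their sums. RNA was extracted with an RNeasy kit and libraries were made with a SMARTER mRNA kit, per the labels' protocols. The builds GRCm38 and mm10 stand in the submitters' processing notes, although row IDs are rat, so the build is unsettled. The aligner, the counter and the handling of reads shared between gene copies or antisense genes: not given in the sources used here.

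Of 30610 rows, 10 without values were left out, leaving 22050 annotated genes and 8550 unnamed loci. All value columns were used. Total counts were 39990624 to 59200981. No library has a group in the labels, so medians and ranges over libraries were given and no test was run. Scores used log2(FPKM + 1), which understates folds of low genes. Implied length was computed from values with at least 20 counts, and length correction removed each library's median deviation in 20 length bins. TMM factors came from edgeR 4.0.16 in R 4.3.3. Other steps used Python 3.11.15. The alternatives were a pseudocount of 0.1, TMM, median-ratio and common-sum scaling, a common sum without globins and the 100 most abundant rows, length correction, a 1 FPKM filter, median for mean, single motif forms and leaving out each library. Scripts were checked on simulated counts. The members and lists were chosen with earlier results of these data known. Named were all members and the 3 genes with the highest median FPKM of each of 22 other lists, of whose 215 genes 208 had a row. The hematopoietic progenitor list is not reported here. Promoters were printed for the 2 most abundant members of each phase with a match. The rule's member with most matches was a tie in both phases, which Mcm7 and Cdk1 already met, and of the other tied genes Mcm5 and Mki67 were printed and Top2a was not.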

Additional observations from a re-analysis of the deposited data

How the results depend on the processing

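The labels give no groups, so differences between libraries have no replicate check, and depth limits little here because every member had at least 216 counts. No paired analysis was possible because the libraries have no groups. Of 118 recomputed values, 102 stayed within 1 SD over libraries or, for counts, within 1.5 times the reported value. The 102 include values that could not change, so they are not a measure of stability. The 1 FPKM filter left out no member and CCAAT has a single form. Leaving out a library at neither end of a score cannot alter its range. The range of the G1/S score, 0.80 as reported, was 1.15 with a common sum and 0.51 after length correction. That of the G2/M score, 0.99 as reported, was 0.53 with TMM, 0.54 with median-ratio scaling, 1.33 with a common sum and 0.48 after length correction. S10 was lowest for 4, 4 and 2 G1/S genes instead of 10, and for 10 G2/M genes instead of 22, under TMM, median-ratio scaling and length correction. Single motif forms left an E2F-type match in 4 G1/S promoters instead of 7 and in 0 G2/M promoters instead of 1, and a CHR-type match in 1 G1/S promoter instead of 3. The cause of these shifts was not tested. Leaving out each library in turn, the G2/M range was 0.58 (without S10) to 0.99 and the G1/S range 0.56 (without S20) to 0.80. Without S20 or S10, the counts of genes highest or lowest in that library have no value.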
